A study of Mus musculus with 8 samples.

Results

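The genes described here encode subunits of 3 enzymes of the inner mitochondrial membrane: complex II (succinate dehydrogenase), complex IV (cytochrome c oxidase) and the ATP synthase. They were taken from a list of 33 named subunits, with the probe set of highest mean signal for each gene, and all 33 were measured among the 19938 genes compared. The list holds 4 genes of complex II, 14 of complex IV and 15 of the ATP synthase. Retinas came from adult male C57BL/6 mice, 6 weeks old at the start, and the groups were MPTP at 1 week, saline at 1 week, MPTP at 4 weeks and saline at 4 weeks, counted as 7 and 28 days. Each group had 6 mice and 2 arrays, and each array held RNA pooled from 4 retinas, so that a group's arrays cover 8 of its 12 retinas. No transgene or deletion was named for any group, and the mice differed by injection and time alone as far as they were described. The pools were not said to come from separate mice, so p-values measure only the spread between these arrays, which may be partly technical.

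Complex II oxidises succinate in the citric acid cycle and passes the electrons to ubiquinone. Complex IV takes electrons from cytochrome c, reduces oxygen to water and pumps protons. The ATP synthase lets the protons flow back through a ring in the membrane and makes ATP in its catalytic head. Photoreceptors pack their inner segments with mitochondria and are among the heaviest users of ATP in the body. MPTP is a neurotoxin whose metabolite MPP+ enters dopaminergic cells, which in the retina are a sparse class of amacrine cells, and inhibits complex I. None of the 3 enzymes described here is that direct target. In whole retina, fewer cells of a type and less RNA per cell cannot be told apart.

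Proximal promoters of these genes are known for sites of NRF1 and of ETS factors, which drive nuclear genes of oxidative phosphorylation. RefSeq promoters (GRCm38.p6, 250 bases before to 50 after the start) matched 27 of the 33 genes, with 30 promoters. The promoter of the gene with the smallest unadjusted p at 1 week in each complex is shown 5′ to 3′, in the gene's own direction. Capitals mark the NRF1, ETS and YY1 cores listed after the sequences. They lie at chr4:140961021-140961320 on the plus strand for Sdhb, chr9:57520982-57521281 on the plus strand for Cox5a and chr11:115419870-115420169 on the minus strand for Atp5h.
Sdhb: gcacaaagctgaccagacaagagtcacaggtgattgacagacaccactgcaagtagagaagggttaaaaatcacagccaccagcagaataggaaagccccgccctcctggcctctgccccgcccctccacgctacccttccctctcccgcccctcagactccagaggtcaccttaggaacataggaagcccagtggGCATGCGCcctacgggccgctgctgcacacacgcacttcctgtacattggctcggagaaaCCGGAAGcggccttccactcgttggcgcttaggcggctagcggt
Cox5a: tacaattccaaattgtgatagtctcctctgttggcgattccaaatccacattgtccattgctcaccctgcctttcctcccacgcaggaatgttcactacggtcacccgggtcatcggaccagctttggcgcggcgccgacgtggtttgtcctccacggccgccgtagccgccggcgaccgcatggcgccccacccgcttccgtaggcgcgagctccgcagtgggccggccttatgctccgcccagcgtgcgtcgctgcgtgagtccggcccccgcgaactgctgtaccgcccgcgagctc
Atp5h: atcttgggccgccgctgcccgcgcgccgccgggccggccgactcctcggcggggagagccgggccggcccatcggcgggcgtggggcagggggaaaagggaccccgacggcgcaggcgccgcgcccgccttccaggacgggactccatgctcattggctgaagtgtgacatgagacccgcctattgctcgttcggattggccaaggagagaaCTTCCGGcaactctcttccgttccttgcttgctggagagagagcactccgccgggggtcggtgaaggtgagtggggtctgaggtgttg
The Sdhb promoter held 1 NRF1 core and 1 ETS core, the Atp5h promoter held 1 ETS core, and the Cox5a promoter held none of the 3.

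The motifs were searched on both strands by their exact letters. The NRF1 core, GCGCATGC, was found in 5 of the 30 promoters of these genes (16.7%), against 2.71% of all 32851 promoters. Its 2 strand forms overlap where both occur in one longer palindrome. The ETS core, CCGGAAG, was in 10 of 30 (33.3%), against 8.86% of all promoters. The YY1 core, AAGATGGC, was in 3 of 30 (10%), against 2.75%, and those 3 belonged to the ATP synthase genes Atp5f1, Atp5j and Atp5j2. The Sp1 core, GGGCGG, which is left in lower case, was in 36.7% of these promoters and in 35.7% of all promoters. A match describes letters in this window and is no evidence of binding.

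Signals are the deposited log2 values of the robust multiarray average (RMA), so that a difference of 1 is a doubling, and a signal cannot be set against that of another gene. Of the 33 genes, 31 had a mean signal above the median of all genes. The exceptions were Cox7a1 and Cox8b, both known as heart and muscle isoforms, at percentiles 39.6 and 36.7. A pair of arrays stood apart from the rest: on the first principal component of all genes (38.3% of the variance) MPTP array 1 at 1 week scored 19.1 and saline array 2 at 1 week 15.7, while the other 6 arrays lay between -9.39 and -0.39. Their interquartile ranges over genes were 1.92 and 1.90, against 1.65 to 1.74 on the other arrays. The deposited arrays thus did not share one distribution of signal. Correlations between arrays over all genes ran from 0.989 to 0.996. Rod markers, of which 6 of 8 listed were measured as single genes, had a mean signal of 11.3 to 11.4 on every array. Lens markers averaged 7.94 on MPTP array 2 at 1 week, against 6.96 to 7.59 on the other arrays, and markers of the retinal pigment epithelium averaged 8.03 there, against 7.31 to 7.80.

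The subunits of each enzyme moved within narrow limits over the 8 arrays. In complex II, the flavoprotein Sdha, which oxidises succinate, ranged from 10.10 to 10.27. The iron-sulfur protein Sdhb ranged from 7.43 to 7.73. The membrane anchors Sdhc and Sdhd ranged from 8.88 to 8.996 and from 7.73 to 7.90. Sdhb varied most of the 4.

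Among the genes of complex IV that have no isoform partner in the list, Cox5a ranged from 8.60 to 9.05 and Cox5b from 9.67 to 9.86. Both wrap the mitochondrially encoded core of the enzyme. Cox6b1, which faces the intermembrane space near cytochrome c, ranged from 10.43 to 10.82. The small transmembrane subunits Cox6c and Cox7b ranged from 9.77 to 10.23 and from 9.96 to 10.62. Cox7b had the widest range of these.

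Of the complex IV isoforms, Cox4i1 ranged from 9.27 to 9.61 and Cox4i2 from 6.91 to 7.24. Cox6a1 ranged from 10.85 to 11.03 and Cox6a2 from 6.95 to 7.52, so that the muscle isoform varied more over the arrays than its general partner. Cox7a1 ranged from 6.51 to 6.77, Cox7a2 from 8.48 to 9.06 and Cox7a2l from 9.10 to 9.48. Cox8a ranged from 9.40 to 9.65 and Cox8b from 6.42 to 6.73.

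The catalytic head of the ATP synthase is built from the alpha subunit Atp5a1 (9.72 to 10.01) and the beta subunit Atp5b (11.36 to 11.56). Its central stalk consists of gamma, Atp5c1 (10.51 to 10.88), delta, Atp5d (8.46 to 8.71), and epsilon, Atp5e (8.06 to 8.59). The peripheral stalk, which keeps the head from turning, holds Atp5f1 (9.96 to 10.32), Atp5h (9.67 to 10.15), Atp5j (9.60 to 9.91) and Atp5o (8.89 to 9.27). The membrane part holds Atp5j2 (9.46 to 9.70), Atp5k (9.81 to 10.10) and Atp5l (10.17 to 10.67). The c-ring, through which protons pass, is encoded by Atp5g1 (8.70 to 8.93), Atp5g2 (9.33 to 9.59) and Atp5g3 (10.71 to 10.97). The head subunits Atp5a1 and Atp5b spanned less than Atp5e and Atp5l did.

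**Figure D1:**
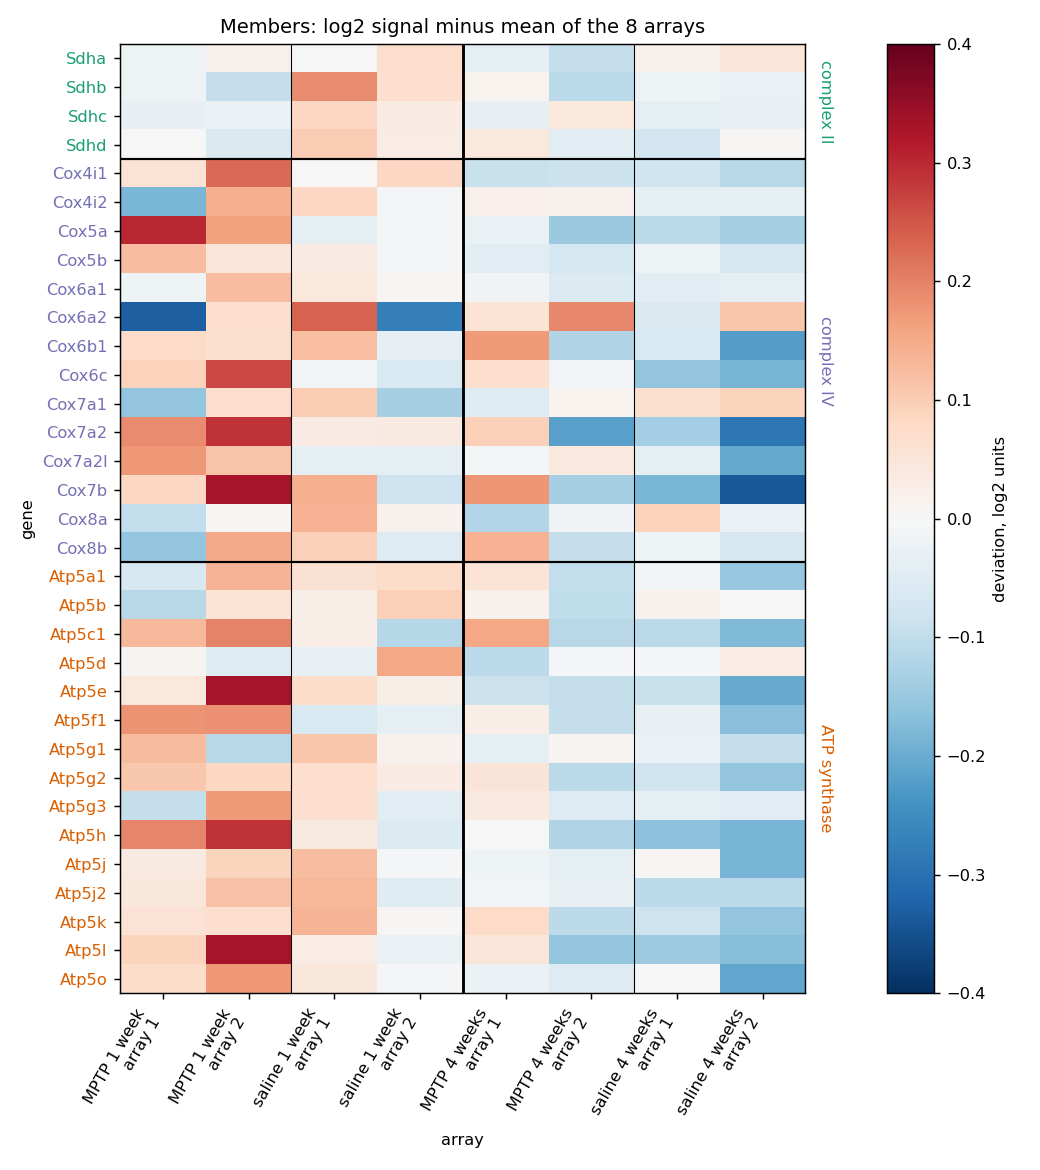
Log2 signal of each of the 33 genes (rows, coloured by enzyme) minus its mean over the 8 arrays (columns, MPTP left of saline at each time), red for higher and blue for lower. ATP synthase rows are mostly red on MPTP array 2 at 1 week and blue on saline array 2 at 4 weeks, while Cox6a2 is at 6.95 on MPTP array 1 and at 7.52 on saline array 1 of 1 week.

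The mean level of each enzyme was followed over the 4 groups; no test was made between enzymes. The mean deviation of the 4 complex II genes from their own means was -0.018 and -0.041 on the MPTP arrays at 1 week, against 0.094 and 0.050 on the saline arrays at 1 week. At 4 weeks it was -0.0040 and -0.050 on the MPTP arrays, against -0.029 and 0.00012 on the saline arrays. The complex II level was thus lower with MPTP at 1 week without overlap, and the groups overlapped at 4 weeks. The saline arrays at 1 week were the highest of all, while the MPTP arrays of that week lay within the range of the arrays at 4 weeks.

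For complex IV the mean deviation was 0.011 and 0.15 on the MPTP arrays at 1 week, against 0.067 and -0.040 on the saline arrays at 1 week. At 4 weeks it was 0.027 and -0.049 on the MPTP arrays, against -0.056 and -0.11 on the saline arrays. Here the groups overlapped at 1 week and not at 4 weeks, where both MPTP arrays were higher by a narrow margin. The lower MPTP array stood at -0.049 and the higher saline array at -0.056, while the spread between replicate arrays was 0.069.

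For the ATP synthase the mean deviation was 0.055 and 0.14 on the MPTP arrays at 1 week, against 0.057 and 0.0042 on the saline arrays at 1 week. At 4 weeks it was 0.013 and -0.077 on the MPTP arrays, against -0.057 and -0.13 on the saline arrays. The groups overlapped at both times, at 1 week by a near tie of 0.055 on an MPTP array against 0.057 on a saline array. Group means of the ATP synthase were 0.096 ± 0.058 with MPTP and 0.030 ± 0.037 with saline at 1 week, and -0.032 ± 0.063 with MPTP and -0.095 ± 0.052 with saline at 4 weeks (SD, n = 2 arrays each). No p is given for these means, because the genes were chosen with results of these arrays known.

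**Figure D2:**
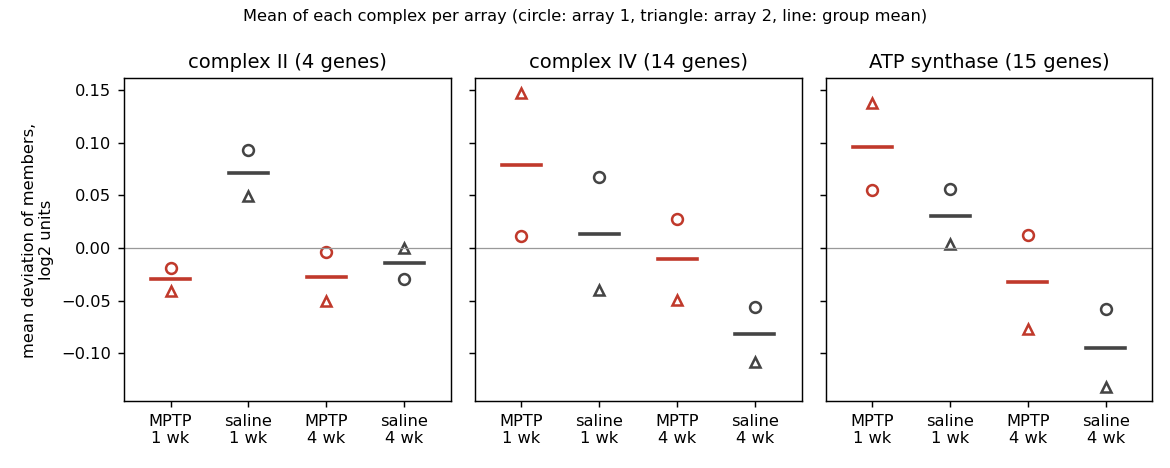
Mean deviation of the genes of each enzyme from their own 8-array means (y axis, log2 units) on each array, by group; circles are array 1, triangles array 2 and lines group means (n = 2). Complex II is highest in the saline retinas of 1 week, at 0.094 and 0.050, and the ATP synthase is highest on MPTP array 2 at 1 week, at 0.14.

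At 1 week the subunits of complex IV and the ATP synthase mostly had small positive differences with MPTP and those of complex II small negative ones, and no gene passed the test. Log2 fold changes were above 0 for 9 of 14 complex IV genes (median 0.051), 10 of 15 ATP synthase genes (median 0.038) and 0 of 4 complex II genes (median -0.091). Over all genes 46.9% were above 0, with a median of -0.0081. No subunit reached an adjusted p under 0.05 by limma with Benjamini-Hochberg adjustment over all 19938 genes, and neither did any other gene (0%). At an unadjusted p under 0.05, 4 subunits were higher and 0 lower, against 1.87% and 2.36% of all genes. Without MPTP array 2, saline array 1 or saline array 2 of that week the 4 became 1. The count was 0 with a spread estimated from this week's arrays alone, 2 after quantile normalization, 2 without the 2 arrays that stood apart and 7 with a trended robust eBayes. The groups did not overlap for 11 subunits with higher and 4 with lower signal in MPTP retinas, against 12.5% and 13.8% of all genes. The share with higher signal was above that of all genes, and the share with lower signal was near it.

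Sdhb had the largest difference of complex II. Its signal was 7.52 and 7.44 on the MPTP arrays, against 7.73 and 7.61 on the saline arrays, a log2 fold change of -0.19 ± 0.092 (standard error of the fit), with both MPTP arrays below both saline arrays. The anchors Sdhd, at 7.80 and 7.74 with MPTP against 7.90 and 7.83 with saline, and Sdhc, at 8.88 and 8.89 with MPTP against 8.996 and 8.94 with saline, did not overlap either. Their log2 fold changes were -0.094 ± 0.088 and -0.088 ± 0.084. For Sdha the groups overlapped.

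In complex IV, Cox5a stood at 9.05 and 8.91 on the MPTP arrays, against 8.71 and 8.74 on the saline arrays. Both MPTP arrays were higher, by 0.25 ± 0.092 on the log2 scale or 1.19-fold (95% interval of the log2 value 0.048 to 0.46, unadjusted p = 0.0206, limma adjusted p = 0.9998). Cox6c stood at 10.05 and 10.23 with MPTP against 9.95 and 9.90 with saline, a difference of 0.21 ± 0.093. Cox7a2l, a relative of Cox7a2, stood at 9.48 and 9.42 with MPTP against 9.26 and 9.27 with saline. Its difference was 0.18 ± 0.092. Cox7a2 stood at 8.96 and 9.06 with MPTP against 8.80 with saline on both arrays, a difference of 0.21 ± 0.12. In each of these 4 genes both MPTP arrays were above both saline arrays.

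In the ATP synthase, the peripheral stalk subunit Atp5h stood at 10.05 and 10.15 on the MPTP arrays, against 9.89 and 9.80 on the saline arrays. The difference was 0.25 ± 0.091 or 1.19-fold (95% interval of the log2 value 0.049 to 0.45, unadjusted p = 0.0198, limma adjusted p = 0.9998). Atp5f1, its neighbour in the stalk, stood at 10.31 and 10.32 with MPTP against 10.07 and 10.10 with saline, a difference of 0.23 ± 0.092. Atp5c1, the rotating gamma subunit, differed by 0.21 ± 0.11 and Atp5l by 0.21 ± 0.11, both without overlap. For the head subunits Atp5a1 and Atp5b the groups overlapped.

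The medians at 1 week moved with each array of that week. Without MPTP array 2 the median was 0.026 for complex IV and 0.0025 for the ATP synthase, and without saline array 2 it was 0.031 and 0.012; 16 of 33 subunits were then above 0 in either case, in place of 19. Without MPTP array 1 it was 0.12 and 0.074 with 24 subunits above 0, and without saline array 1 it was 0.10 and 0.084 with 23. The complex II median stayed below 0 without any 1 of these arrays, between -0.12 and -0.067, both limits set by saline arrays. MPTP array 2 was also the array with most signal from lens and pigment epithelium markers, and the part of these cells in the result was not tested. Between-array normalization of the deposited values lowered the positive medians: the ATP synthase median was 0.0070 after quantile normalization and -1e-05 after cyclic loess, and complex IV 0.019 and 0.015. The complex II median kept its sign at -0.11 in both.

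At 4 weeks complex IV and the ATP synthase again had small positive medians, and that of complex II was near 0. Medians were 0.060 for complex IV (11 of 14 above 0), 0.064 for the ATP synthase (13 of 15) and 0.0067 for complex II (2 of 4), against 0.0043 over all genes, of which 51.8% were above 0. No gene had an adjusted p under 0.05 (0%), and at an unadjusted p under 0.05 the subunits numbered 0 higher and 0 lower, against 1.1% and 0.813% of all genes. Without MPTP array 2 of 4 weeks 4 subunits were higher at that p, and without either MPTP array of 1 week, which enters only the shared spread, 1. It was 1 after quantile normalization or cyclic loess, and 2 with a spread from the arrays of 4 weeks alone, with a trended robust eBayes, among genes above percentile 50 or without the 2 arrays that stood apart. The groups did not overlap for 6 subunits with higher and 2 with lower signal, against 17.4% and 17.9% of all genes. The share with higher signal was thus near that of all genes, and the share with lower signal was below it.

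Cox6c stood at 10.03 and 9.95 on the MPTP arrays at 4 weeks, against 9.80 and 9.77 on the saline arrays, a difference of 0.20 ± 0.093. Cox7b stood at 10.47 and 10.16 with MPTP against 10.11 and 9.96 with saline, a difference of 0.28 ± 0.14. Cox7a2l differed by 0.14 ± 0.092, with 9.30 and 9.34 against 9.27 and 9.10. In these 3 complex IV genes both MPTP arrays were the higher ones, by a narrow margin for Cox7a2l. The complex IV gene Cox7a1 went the other way, lower with MPTP without overlap, at a log2 fold change of -0.095. In the ATP synthase the groups did not overlap for Atp5h (0.11 ± 0.091) and Atp5j2 (0.084 ± 0.093), and in complex II for Sdha, which stood at 10.15 and 10.10 with MPTP against 10.21 and 10.24 with saline (-0.10 ± 0.085). Leaving out MPTP array 1 at 4 weeks lowered the complex IV median to 0.0019 and left 19 subunits above 0, against 26 with all arrays.

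**Figure D3:**
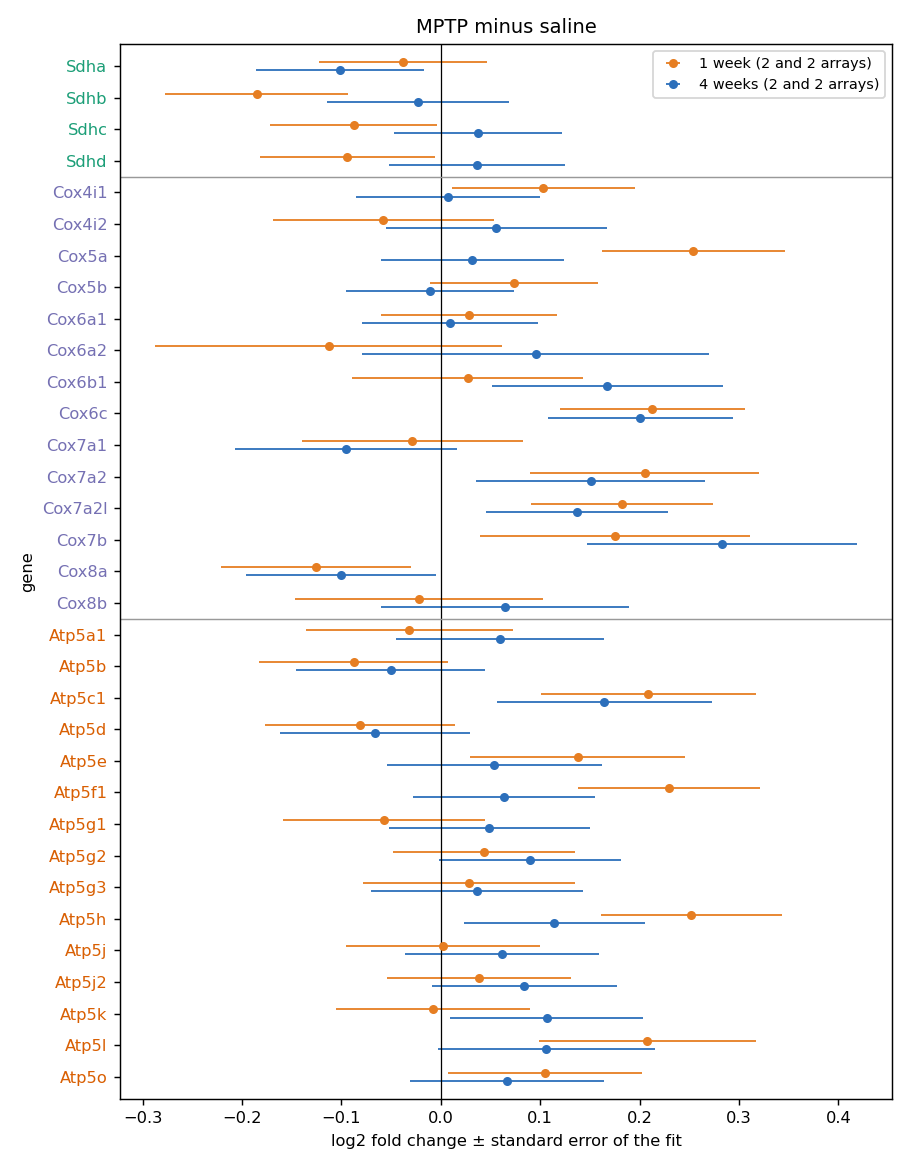
Log2 fold change, MPTP minus saline, of each gene at 1 week (orange) and 4 weeks (blue), with bars of 1 standard error of the fit (2 and 2 arrays at each time). Cox6c, Cox7a2, Cox7a2l, Cox7b and Atp5c1 are among the genes to the right at both times. Sdha, Sdhb, Cox7a1, Cox8a, Atp5b and Atp5d lie to the left at both, and Cox5a is at 0.25 at 1 week and 0.032 at 4 weeks.

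Over both times together, 4 MPTP arrays were set against 4 saline arrays with time as a term. Medians were 0.043 for complex IV (10 of 14 above 0), 0.061 for the ATP synthase (12 of 15) and -0.049 for complex II (0 of 4), against -0.0017 over all genes, of which 49.0% were above 0. At an unadjusted p under 0.05, 7 subunits were higher and 0 lower, against 2.3% and 2.47% of all genes. The 7 became 2 without MPTP array 2 of 1 week or saline array 2 of 4 weeks, and 3 without MPTP array 1 of 4 weeks or saline array 2 of 1 week. It was 3 without the 2 arrays that stood apart and 6 to 9 under the other settings. Named after their values were seen, they were Cox6c, Atp5h, Cox7a2l, Atp5c1, Cox7b, Cox7a2 and Atp5f1, with differences of 0.15 to 0.23. No gene reached an adjusted p under 0.05 (0%), and the smallest of a subunit was 0.973.

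Only Cox6c and Cox7a2l of the 33 had all 4 MPTP arrays above all 4 saline arrays, against 1.01% of all genes, and 0 had all 4 below, against 1.49%. For Cox6c the difference was 0.21 ± 0.061 or 1.15-fold (95% interval of the log2 value 0.072 to 0.34, unadjusted p = 0.00617, limma adjusted p = 0.973). For Cox7a2l it was 0.16 ± 0.060. For Cox6c the separation was a near tie, with the lowest MPTP array 0.00033 above the highest saline array, and for Cox7a2l that gap was 0.030. A second probe set of Cox6c gave 0.16 ± 0.056, and a second one of Cox7a2l gave 0.11 ± 0.068.

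The test of whether the MPTP difference itself changed between the times found no gene at an adjusted p under 0.05 (0%). At an unadjusted p under 0.05 the subunits numbered 0 higher and 0 lower, against 1.42% and 0.537% of all genes. The smallest p, singled out after the values were seen, was that of Cox5a, at -0.22 ± 0.13 for 4 weeks minus 1 week (unadjusted p = 0.12, limma). The median was 0.13 for complex II, -0.016 for complex IV and 0.015 for the ATP synthase. In the median of the 33 genes the 95% interval reached 0.21 to either side of the estimate at each time and 0.30 for this difference. Differences of the sizes listed here were mostly not detectable with 2 arrays a group.

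Several complex IV subunits exist as a general and a tissue-restricted isoform, and partners can be read side by side. The general Cox4i1 differed by 0.10 ± 0.092 at 1 week and 0.0073 ± 0.092 at 4 weeks, and the lung isoform Cox4i2, known to rise with low oxygen, by -0.058 ± 0.11 and 0.056 ± 0.11. Cox6a1 differed by 0.028 ± 0.089 and 0.0092 ± 0.089, and its heart and muscle partner Cox6a2 by -0.11 ± 0.17 and 0.095 ± 0.17. Cox8a stood at -0.13 ± 0.096 and -0.10 ± 0.096, and the muscle partner Cox8b at -0.022 ± 0.12 and 0.064 ± 0.12. For Cox8a both MPTP arrays were below both saline arrays at 1 week, while the groups overlapped at 4 weeks. None of these passed the test.

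In the Cox7a family the muscle isoform and the others had opposite signs, without a test between them. Over both times Cox7a2 stood at 0.18 ± 0.077 and Cox7a2l at 0.16 ± 0.060, while the muscle isoform Cox7a1 stood at -0.062 ± 0.074. Cox7a1 signal was 6.51 and 6.74 on the MPTP arrays at 1 week, against 6.77 and 6.54 on the saline arrays, and 6.62 and 6.68 at 4 weeks with MPTP, against 6.73 and 6.76 with saline. At 1 week it was low on the 2 arrays that stood apart. Across the 8 arrays Cox7a1 and Cox6a2 ran against the first principal component (r = -0.78 and -0.95, a description over arrays of 4 groups). Cox6a2 signal was 6.95 and 7.35 on the MPTP arrays at 1 week, against 7.52 and 7.01 on the saline arrays, so the arrays of one group lay further apart than the groups.

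The c-ring of the ATP synthase is encoded by 3 genes with the same mature protein. Atp5g1 differed by -0.057 ± 0.10 at 1 week and 0.049 ± 0.10 at 4 weeks. Atp5g2 differed by 0.044 ± 0.092 and 0.090 ± 0.092, and Atp5g3 by 0.028 ± 0.11 and 0.036 ± 0.11. All 3 stayed within 1 standard error of 0 at both times.

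More than 1 probe set was assigned to 9 of the 33 genes, and genes of this kind have processed copies in the genome to which a probe set may also bind. Whether the kept probe set or another one targets the gene itself was not checked. The values given for these 9 genes may therefore stem in part from such copies. For Atp5f1 the probe sets disagreed (r = 0.29 over the 8 arrays): the kept one gave 0.23 at 1 week and the other -0.031. At 4 weeks they gave 0.064 and 0.16. The difference reported for Atp5f1 is therefore uncertain. For the other 8 genes the lowest correlations between probe sets were 0.80 to 0.96. The second probe set gave smaller differences at 4 weeks for Cox7b (0.14, against 0.28 in the kept one), Cox7a2l (0.055, against 0.14) and Cox6c (0.14, against 0.20). At 1 week it gave 0.14 for Cox7b, 0.17 for Cox7a2l and 0.18 for Cox6c. For Cox5b the kept probe set gave -0.011 at 4 weeks and the second 0.018. The 3 probe sets of Atp5h gave 0.25, 0.30 and 0.29 at 1 week, and the 6 of Atp5l gave 0.18 to 0.26.

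Across the 8 arrays the ATP synthase genes moved together more than the others, as a description of arrays that share their groups and their general level. The median correlation between pairs of genes was 0.62 in the ATP synthase (86 of 105 pairs above 0) and 0.45 both in complex IV (63 of 91) and in complex II (5 of 6). With group means removed it was 0.49 in the ATP synthase, 0.35 in complex IV and -0.19 in complex II. The 6 pairs of complex II then ran from -0.78 to 0.82. With 2 arrays a group, each group leaves a single independent value per gene there. Correlations among other genes of like signal were not computed. Cox7b and Atp5l followed the mean of the other subunits most closely (r = 0.95 and 0.93). Atp5d (r = -0.37) ran against it, and Sdha (r = -0.026) did not follow it.

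From 1 to 4 weeks most subunits were lower, in saline and in MPTP retinas, and no gene passed the test in either. The 2 comparisons share no arrays with each other, but each shares arrays with the MPTP comparisons above. In MPTP retinas 26 of 33 subunits were below 0, with medians of -0.10 for the ATP synthase (15 of 15 below 0), -0.11 for complex IV and 0.021 for complex II, against 0.015 over all genes, of which 53.3% were above 0. In saline retinas 31 of 33 were below 0, with medians of -0.15 for the ATP synthase (15 of 15), -0.078 for complex IV and -0.095 for complex II, against 0.0012 over all genes, of which 50.6% were above 0.

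No gene had an adjusted p under 0.05 in MPTP retinas (0%) or in saline retinas (0%). In MPTP retinas 7 subunits were lower and 0 higher at an unadjusted p under 0.05, against 4.36% and 5.43% of all genes. The 7 became 0 without MPTP array 2 of 4 weeks, 2 without MPTP array 2 of 1 week and 4 without either saline array of 4 weeks. After quantile normalization it was 2, after cyclic loess 1, and with a spread from the MPTP arrays alone 4. The 4-week arrays lay below both 1-week arrays for 15 subunits and above for 0, against 21.5% and 22.8% of all genes. In saline retinas 0 were lower and 0 higher at that p, against 1.25% and 0.873% of all genes. Leaving out saline array 2 of 1 week gave 3 lower, and leaving out an MPTP array, which enters only the shared spread, gave 1 or 2. It was 3 without the 2 arrays that stood apart, 4 with a trended robust eBayes, 2 after median centring, among genes above percentile 50 or with a spread from the saline arrays alone, and 1 with the mean of probe sets. There the 4-week arrays lay below for 21 subunits and above for 0, against 15.1% and 12.7% of all genes.

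In MPTP retinas Cox5a stood at 8.72 and 8.60 at 4 weeks, against 9.05 and 8.91 at 1 week, a difference of -0.32 ± 0.092 (unadjusted p = 0.0064, limma adjusted p = 0.507). Atp5h stood at 9.86 and 9.74 at 4 weeks, against 10.05 and 10.15 at 1 week (-0.30 ± 0.091). Cox7a2 differed by -0.30 ± 0.12, Cox4i1 by -0.23 ± 0.092 and Cox5b by -0.14 ± 0.085. In the ATP synthase Atp5e differed by -0.28 ± 0.11, Atp5l by -0.26 ± 0.11 and Atp5f1 by -0.22 ± 0.092. In complex II only Sdha did not overlap (-0.066 ± 0.085).

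In saline retinas Cox7b stood at 10.11 and 9.96 at 4 weeks, against 10.44 and 10.21 at 1 week (-0.29 ± 0.14). Cox7a2 stood at 8.63 and 8.48 at 4 weeks, against 8.80 on both arrays at 1 week (-0.25 ± 0.12). Both belong to the small transmembrane subunits of complex IV. Cox6b1 differed by -0.19 ± 0.12, Cox6c by -0.14 ± 0.093, Atp5k by -0.19 ± 0.097, Atp5e by -0.19 ± 0.11, Atp5g2 by -0.17 ± 0.092 and Atp5h by -0.17 ± 0.091. In complex II Sdhb differed by -0.15 ± 0.092, Sdhd by -0.10 ± 0.088 and Sdhc by -0.091 ± 0.084.

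**Figure D4:**
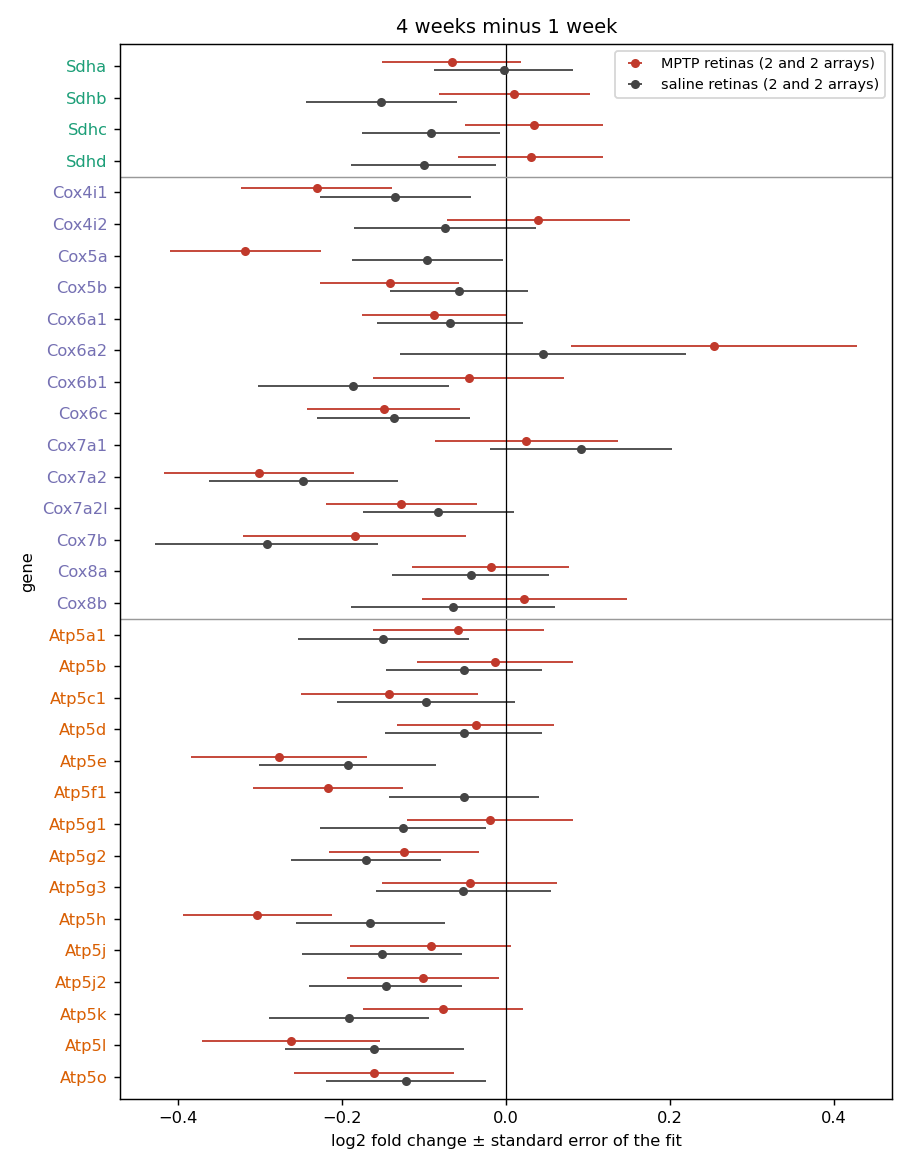
Log2 fold change, 4 weeks minus 1 week, of each gene in MPTP retinas (red) and saline retinas (dark grey), with bars of 1 standard error of the fit (2 and 2 arrays each). All 15 ATP synthase genes lie left of 0 in both, and Cox6a2 lies furthest right, at 0.25 in MPTP retinas.

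The time difference in MPTP retinas depended on how the arrays were scaled. After quantile normalization the ATP synthase median was -0.0046 and after cyclic loess 0.0063, and 16 and 17 subunits were above 0 in place of 7. Among all genes with a mean signal above percentile 50, to which 31 of the subunits belong, the median was -0.061 in that comparison. In saline retinas the ATP synthase median stayed below 0, at -0.087 after quantile normalization and -0.095 after cyclic loess, with 7 subunits above 0 in both. Cone markers were also lower at 4 weeks, with mean signals of 9.88 to 9.95 at 4 weeks against 10.02 to 10.12 at 1 week. Of the 6 cone markers 5 were below 0 in MPTP retinas and 6 in saline retinas. Of the 6 rod markers 6 were below 0 in MPTP retinas (median -0.086, 4 without overlap) and 3 in saline retinas (median -0.0037). The rod mean was 11.29 to 11.33 at 4 weeks, against 11.26 to 11.39 at 1 week. Skeletal muscle markers, at mean signals of 6.56 to 6.66 at 4 weeks and 6.46 to 6.59 at 1 week, were above 0 for 11 of 12 in both. Those means lay below the median signal of every array (6.95 to 7.02), so the muscle list was dim. They were lowest on the 2 arrays of 1 week that stood apart, at 6.49 and 6.46. The part of these cell types in the result was not tested.

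**Figure D5:**
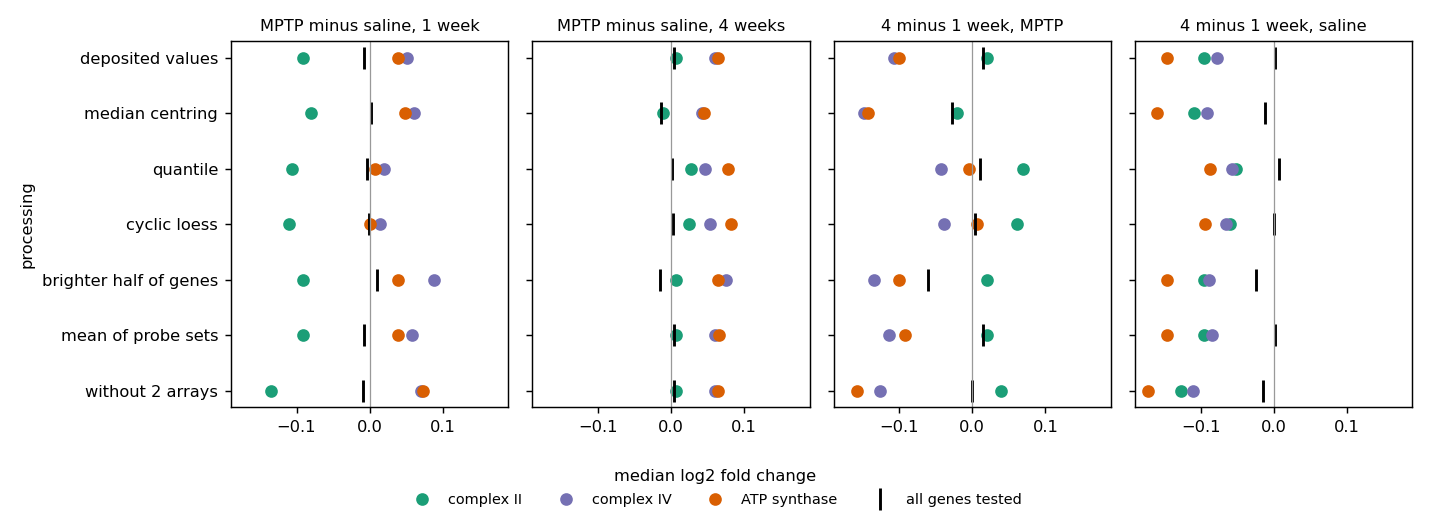
Median log2 fold change of each enzyme (dots) and of all genes tested (black ticks) in 4 comparisons, under the deposited values and 6 other ways of treating them. The ATP synthase median in MPTP retinas over time sits at -0.10 with the deposited values and at -0.0046 and 0.0063 after quantile normalization and cyclic loess, while in the MPTP comparison of 4 weeks it stays between 0.046 and 0.082.

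The counts of other lists stand beside these, against 49.0% of all genes above 0 over both times, and no test compares the lists. Over both times 26 of 34 complex I genes (median 0.074) and 8 of 9 complex III genes (median 0.12) were above 0 with MPTP, and 0 passed the adjusted test. Of the factors that build the enzymes described here, all 4 measured for complex II (median 0.052), 13 of 19 for complex IV (median 0.033) and 5 of 7 for assembly and regulation of the ATP synthase (median 0.035) were above 0. The copper chaperone Cox17, which supplies complex IV, stood at 0.22 ± 0.084, and Atpaf2, an assembly factor of the alpha subunit, at -0.17 ± 0.069. Citric acid cycle genes, among which complex II also acts, were above 0 for 8 of 12 (median 0.032). Between 1 and 4 weeks 12 of 12 citric acid cycle genes were below 0 in MPTP and in saline retinas, as were 33 and 31 of 34 complex I genes. Of all genes, 53.3% were above 0 over time in MPTP retinas and 50.6% in saline retinas. These other lists were not rerun under the other scalings, on which the time difference of the subunits in MPTP retinas depended.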

How the data were processed

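The authors deposited log2 signals of 28944 probe sets on 8 Affymetrix arrays, for which the submitters' processing notes name RMA and Affymetrix Expression Console, without a version. Per the labels' protocols, 100 ng of total RNA per pool was amplified (SPIA) and biotinylated. The depth of such data is the number of arrays, 2 a group, which limits the precision. The platform annotation gave 1 gene for 21789 probe sets, several for 1621 and none for 5534. The probe set with the highest mean was kept for each of 19938 genes, and 1 member is held under a newer symbol. No value was filtered out in the main comparisons. Group means were compared with limma 3.58.1 in R 4.3.3 (lmFit and eBayes, 4 residual degrees of freedom), and MPTP over both times in a fit with treatment and time. P-values were Benjamini-Hochberg adjusted over all genes, with a threshold of 0.05. The procedure was tested on simulated data with changes larger than any subunit difference given here, so that test does not cover differences of these sizes.

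Members and lists were chosen with earlier results of these data known, so no test was made over a list. Every member is named once with its level. In each comparison the members given with values are, per enzyme, up to 4 with the smallest unadjusted p among those whose groups do not overlap, plus isoform partners; exceptions are marked where they stand. Other genes come from set lists, at most 3 a list by p over both times. Alternatives were quantile normalization, median centring, cyclic loess, genes above percentile 50 of mean signal, the mean of probe sets, a trended robust eBayes, only the groups compared, a replicate block, and leaving out arrays. Replicate numbers were compared through the deviations of same-numbered arrays from their group means. Over the 6 pairs of groups the correlations of these deviations ran from -0.38 to 0.21. With 2 arrays a group, the deviations of a group's arrays are equal and opposite. At 1 week each group also holds an array that stood apart. These correlations therefore do not settle whether the numbers pair the arrays, and pairing was not tested in another way.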

Additional observations from a re-analysis of the deposited data

How the results depend on the processing

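No subunit passed an adjusted p of 0.05 in any comparison under any alternative run, which says nothing of stability with 2 arrays a group. The size and, near 0, the sign of small differences moved, and the causes were not tested. Over the alternatives that keep all arrays, the count of subunits at an unadjusted p under 0.05 ran from 0 to 7 for higher signal with MPTP at 1 week and from 1 to 7 for lower signal at 4 weeks in MPTP retinas. After quantile normalization the complex II median was 0.17 for the change of the MPTP difference between the times, -0.052 for time in saline retinas and 0.069 for time in MPTP retinas, and that of the ATP synthase was 0.072, -0.087 and -0.0046. After cyclic loess complex II was at 0.17, -0.060 and 0.061 in those 3 comparisons, and the ATP synthase was at 0.0063 for time in MPTP retinas. After median centring complex II was at 0.099 for the change of the MPTP difference and at -0.021 for time in MPTP retinas. Without the 2 arrays that stood apart complex II was at -0.13 at 1 week, 0.17 for the change of the MPTP difference and -0.13 for time in saline retinas, and the ATP synthase was at -0.047 for the change and -0.16 for time in MPTP retinas. There 1 gene of all, Rny1, a small RNA gene named after its value was seen, passed the adjusted test for time in MPTP retinas (limma adjusted p = 0.0374), and it did so without MPTP array 1 of 1 week alone (0.0117).

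Leaving out 1 array at a time, complex II ranged from -0.12 to -0.067 at 1 week, -0.045 to 0.019 at 4 weeks, 0.094 to 0.16 for the change of the MPTP difference, -0.13 to -0.064 for time in saline retinas and -0.032 to 0.039 for time in MPTP retinas. The ATP synthase ranged from 0.015 to 0.13 at 4 weeks, -0.046 to 0.055 for the change, -0.17 to -0.078 for time in saline retinas and -0.17 to -0.083 for time in MPTP retinas, and complex IV from -0.057 to 0.063 for the change. The count of all genes at an adjusted p under 0.05 for time in MPTP retinas ranged from 0 to 1. At an unadjusted p under 0.05 the count of subunits higher with MPTP ranged from 1 to 4 at 1 week, 0 to 4 at 4 weeks and 2 to 8 over both times, and the count lower at 4 weeks in MPTP retinas from 0 to 7.

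Of 71 single-gene differences chosen by the naming rule, 19 changed sign in at least 1 alternative. The trended robust eBayes, the replicate block, the percentile filter and the fit of only the groups compared leave a gene's estimate unchanged. Those settings could therefore change no sign. The other single-gene values in the text were not rerun. Cox6a1 was at -0.035 at 1 week, -0.0032 at 4 weeks and -0.019 over both times after quantile normalization, at -0.017 at 1 week and -0.0040 over both times after cyclic loess, and at -0.0089 at 4 weeks after median centring. Atp5g3 was at -0.042 at 1 week and -0.013 over both times after quantile normalization and at -0.017 at 1 week after cyclic loess. Sdha over time in MPTP retinas was at 0.044 and 0.039 after quantile normalization and cyclic loess, and Cox4i1 at 4 weeks at -0.011 after median centring. Without the 2 arrays that stood apart Cox4i2 was at 0.059 at 1 week and 0.057 over both times, Cox8b at 0.057 at 1 week and Cox6a2 at 0.0073 over both times. Without 1 array, values at 1 week ranged from -0.22 to 0.10 for Cox4i2, -0.043 to 0.099 for Cox6a1, -0.37 to 0.14 for Cox6a2, -0.15 to 0.089 for Cox7a1, -0.18 to 0.13 for Cox8b, -0.18 to 0.061 for Atp5g1 and -0.11 to 0.16 for Atp5g3. At 4 weeks they ranged from -0.0076 to 0.022 for Cox4i1, -0.012 to 0.030 for Cox6a1, -0.0053 to 0.31 for Cox7a2, -0.054 to 0.18 for Cox8b and -0.0095 to 0.082 for Atp5g3. Over both times they ranged from -0.054 to 0.075 for Cox4i2, -0.012 to 0.045 for Cox6a1, -0.090 to 0.11 for Cox6a2, -0.035 to 0.091 for Cox8b, -0.041 to 0.054 for Atp5g1 and -0.020 to 0.087 for Atp5g3.

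With a replicate block, 0 subunits passed the adjusted test in any comparison. At an unadjusted p under 0.05, 3 were higher with MPTP at 1 week and 6 over both times. Every group holds an array of each number, so this block could not change a log2 fold change or a median. A block with the numbers crossed at 1 week, added after seeing the data because the correlation of deviations there was -0.38, gave 0 subunits and 0 genes at an adjusted p under 0.05. The number of arrays, 2 a group, limits what could be detected.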
